A study of Mus musculus with 12 samples.

Results

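A set of 9 genes of neuromodulator signalling were followed through trigeminal ganglia of mice that lost Prdm12 as adults: the dopamine receptor genes Drd1 and Drd2, the vasopressin and oxytocin receptor genes Avpr1a and Oxtr, the neuropeptide Y receptor genes Npy1r and Npy2r, the somatostatin receptor gene Sstr2, the galanin receptor gene Galr1, and Rgs9bp. They are 9 of the 55416 genes in the count files and were picked by name, with earlier results of these libraries in view, among them the increase of Drd1, Avpr1a and Rgs9bp. The values of these genes in iKO against control libraries are therefore given as a description: intervals show the error of an estimate, no p is printed, and whether a gene passed a threshold is no support for its change. Drd1, Avpr1a and Rgs9bp were higher in each of the 6 iKO libraries than in any of the 6 control libraries, by 3.32, 1.93 and 2.25 times in mean level. The remaining 6 genes overlapped between the groups.

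The study measured bulk polyadenylated RNA of trigeminal ganglia from adult C57Bl6 mice, 1 month after injection. The 6 inducible knockout libraries (iKO, 3 female and 3 male) were from mice with a tamoxifen-dependent Cre recombinase at the Rosa26 locus and 2 floxed Prdm12 alleles. All of these mice received tamoxifen. The 6 control libraries (2 female, 4 male) were of several kinds. Control 1 carried this Cre and 1 floxed allele, controls 2 and 3 carried 1 floxed allele and no Cre, control 4 carried the Cre and no floxed allele, and all 4 received tamoxifen. Controls 5 and 6 were of the iKO genotype but were given corn oil. Rosa26 is active in most cell types, so its promoter does not limit the Cre to neurons. No allele or agent is common to all 12 libraries. The design asks what adult loss of Prdm12, a transcriptional regulator needed for the development of pain-sensing neurons, does to gene expression in this ganglion.

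The trigeminal ganglion holds the cell bodies of sensory neurons of the face, wrapped by satellite glia and Schwann cells. All 8 receptors are G-protein-coupled receptors. D1 receptors act through stimulatory G proteins, whereas D2, Y1, Y2, somatostatin and galanin type 1 receptors act through inhibitory G proteins and V1a and oxytocin receptors mainly through Gq. Receptors coupled to inhibitory G proteins commonly dampen the excitability of sensory neurons and the release of their transmitters. Rgs9bp encodes a membrane anchor for RGS9, a protein of the R7 family that speeds the switching-off of inhibitory G-protein subunits and is best known in photoreceptors.

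Because Drd1 and Avpr1a were higher together in iKO libraries, the sequences just upstream of their annotated starts are shown. They come from RefSeq's promoter table (GRCm38.p6), are written 5′ to 3′ on the gene's own strand, and leave out bases of exons annotated by GENCODE M21. The stretch for Avpr1a lies at chr10:122448249-122448498 on the plus strand. Drd1 has a distal start, with the stretch at chr13:54055706-54055908 on the minus strand, and a proximal start, with the stretch at chr13:54054781-54055030 on the minus strand, inside the first intron of the longer transcripts. Capitals mark matches to the TATA box pattern TATAAA, to the CCAAT box (printed as ATTGG where it is on the other strand), to the GC box pattern GGGCGG and to the E-box pattern CANNTG, each searched on both strands.
Avpr1a: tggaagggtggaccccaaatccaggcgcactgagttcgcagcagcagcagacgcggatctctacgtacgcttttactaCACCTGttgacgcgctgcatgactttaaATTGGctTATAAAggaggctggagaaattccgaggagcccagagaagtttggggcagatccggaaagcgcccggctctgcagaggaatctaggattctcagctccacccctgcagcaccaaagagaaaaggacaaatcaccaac
Drd1 distal start: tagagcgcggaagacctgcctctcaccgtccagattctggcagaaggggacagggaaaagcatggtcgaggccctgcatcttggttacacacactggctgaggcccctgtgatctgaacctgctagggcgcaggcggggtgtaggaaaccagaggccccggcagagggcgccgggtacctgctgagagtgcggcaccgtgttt
Drd1 proximal start: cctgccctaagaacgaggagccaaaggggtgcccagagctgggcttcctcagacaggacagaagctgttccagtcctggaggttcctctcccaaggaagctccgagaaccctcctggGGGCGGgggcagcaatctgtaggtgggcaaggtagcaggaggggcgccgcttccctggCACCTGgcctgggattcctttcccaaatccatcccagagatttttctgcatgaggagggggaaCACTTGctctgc

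In the 250 bases before its start, Avpr1a held 1 TATAAA, 1 CCAAT box and 1 CANNTG, the pattern that basic helix-loop-helix factors bind. The 250 bases before the proximal Drd1 start held 2 CANNTG matches and 1 GGGCGG. The 250 bases before the distal Drd1 start held none of these 4 patterns, and none of the 3 windows held TGACGTCA, the full cAMP response element. Over the same window of 32851 annotated starts, 12.4% held TATAAA, 33.8% CCAAT, 32.7% GGGCGG, 66.2% CANNTG and 1.55% TGACGTCA, and no match overlapped another in the sequences shown. The windows held 12 CpG dinucleotides for Avpr1a, 15 for the distal and 5 for the proximal Drd1 start, against a median of 6 over all starts. These are matches of letters in a short window and say nothing of binding. Of the 9 genes, 7 were found in the promoter table, and Galr1 and Rgs9bp were not.

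Total counts per library ran from 13207526 to 24178970, so that 3 counts, taken as the limit that a count of 0 allows, correspond to 0.124 to 0.227 CPM, the counts of a gene per 1000000 counts of its library. Prdm12 measured 13.2 to 19.2 CPM across iKO and 56.9 to 133 CPM in control libraries, a difference of -2.55 in mean log2(CPM + 1) (exact two-sided permutation test, p = 0.00216, the smallest that 924 assignments can give). Its lowest control level was that of control 6, a corn oil control of the iKO genotype, and the next lowest was 88.2 CPM, in control 1. The other corn oil control, control 5, had the highest level. The exons of Prdm12 share bases with the antisense gene Gm13425, and reads of such a pair cannot be told apart without strand. All 12 sensory neuron markers were detected in the libraries, with summed levels of 10400 to 12900 CPM across controls and 10700 to 13300 CPM across iKO. The sum follows the most abundant markers and does not show that each was alike in both groups. Of the 12 log2 estimates, 5 were positive and 7 negative (median -0.02). The negative ones included Scn10a (-0.22) and Elavl3 (-0.24), which did not pass (edgeR adjusted p = 0.184 and 0.188). Markers of neighbouring tissues varied between libraries: the summed level of 10 pituitary markers was highest in iKO 3 (2820 CPM), that of 9 brain markers in control 6 (2510 CPM) and that of 8 skeletal muscle markers in iKO 5 (943 CPM). Markers of meninges and fibroblasts summed to 1910 to 3500 CPM among controls and 1310 to 2470 CPM among iKO libraries. All 8 had negative estimates (median log2 fold change -0.55), and 2 of 8, Slc22a6 and Slc22a8, passed as lower in iKO (edgeR adjusted p = 0.0476 and 0.044). Some other marker lists leaned 1 way too, with 0 markers passing. All 8 macrophage and lymphocyte markers (median -0.31) and 7 of 8 tested brain markers (median -0.7) had negative estimates. All 8 skeletal muscle markers had positive ones (median 1.25). Glia and Schwann cell markers were split, with 4 positive and 4 negative. The part of these tissues in the results below was not tested. In bulk RNA, fewer cells of a type and less RNA per cell cannot be told apart, and this holds for every gene below.

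Among all genes tested, 0.379% passed an adjusted p of 0.05 in iKO against control (63 of 16637, edgeR quasi-likelihood test with Benjamini-Hochberg adjustment), and 0.174% passed and were higher in iKO. Of the 9 genes, 3 passed and all 3 were higher, a count from which nothing is read because these genes were chosen with this contrast known. The groups did not overlap for 1.2% of all genes, and for 0.679% iKO was the higher group; of the 9 genes these were the same 3. The median log2 fold change of the 9 genes was 0.11, beside 0.00 over all genes tested. All 9 passed the filter on low counts, which asks for 0.58 CPM in 6 libraries. Drd1 passed only through the iKO group, where 6 of 6 libraries reached that level against 1 of 6 controls.

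**Figure D1:**
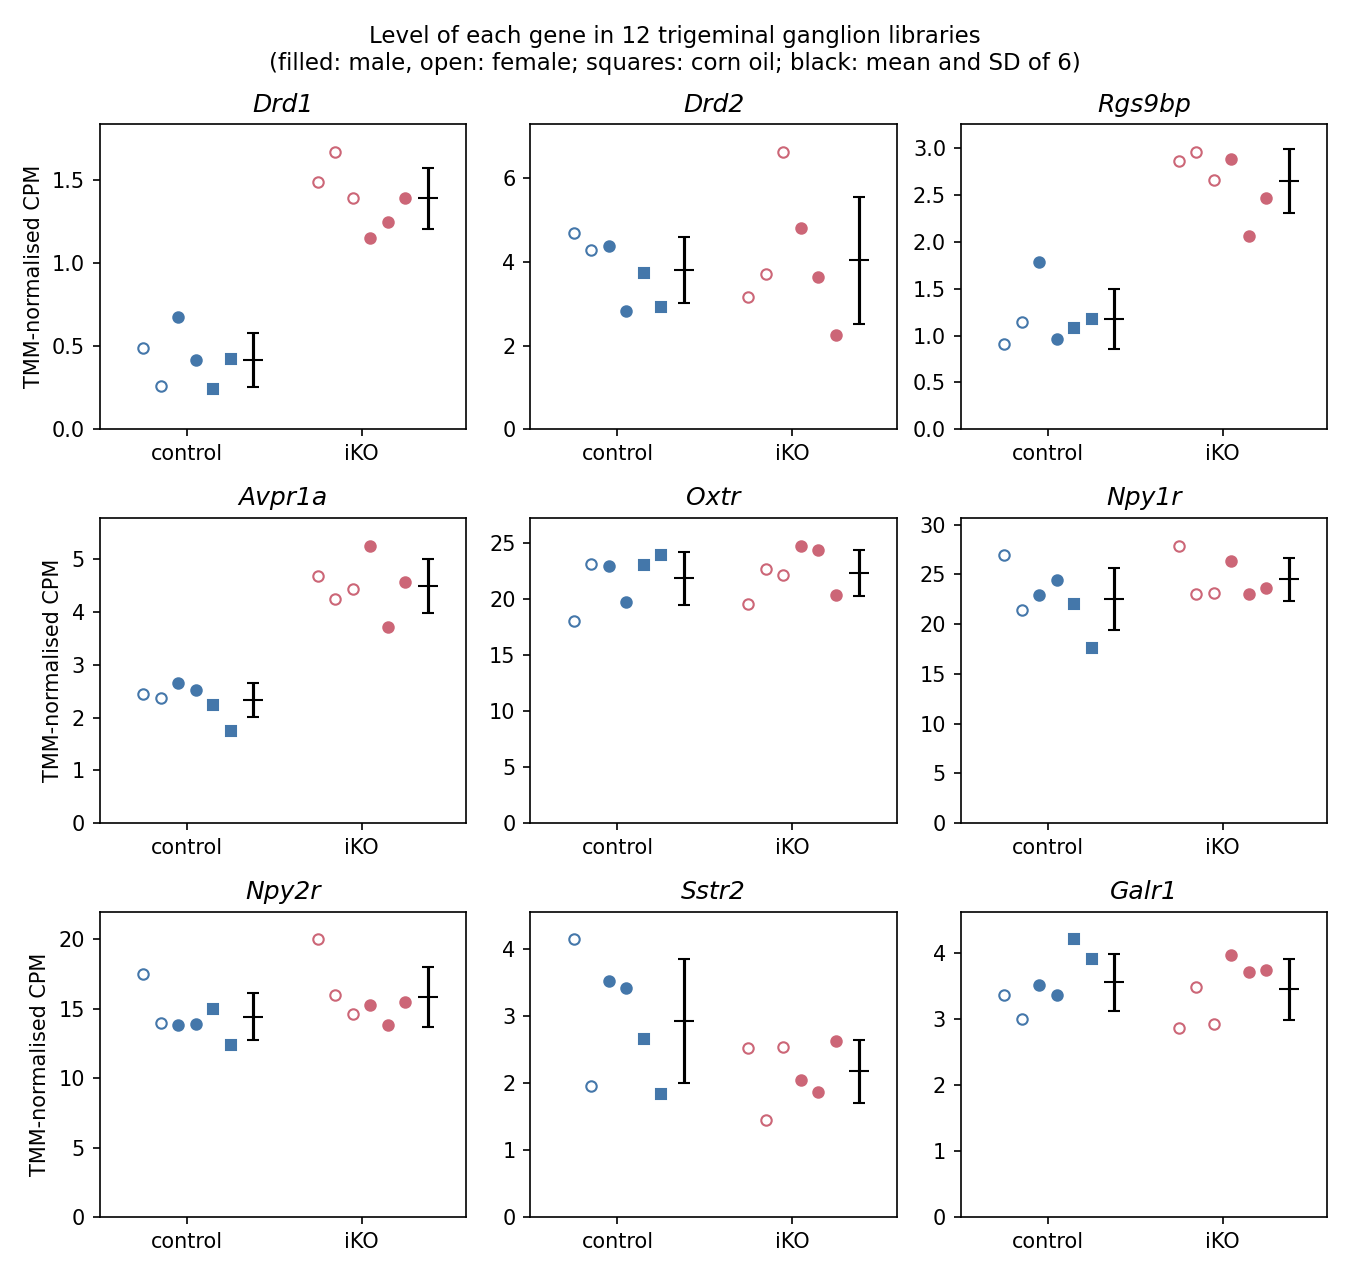
TMM-normalised CPM (vertical axes, each from 0) of the 9 genes in 6 control (blue) and 6 iKO (red) libraries; filled symbols are males, open symbols females, squares corn oil controls, and black bars the mean and SD of 6. The iKO points of Drd1, Rgs9bp and Avpr1a lie above all control points, and the points of the other genes overlap between the groups.

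Levels are compared between genes per kilobase of exon, which removes the effect of transcript length on the count. In control libraries Npy1r had the highest level, 6.53 CPM per kb, followed by Oxtr at 4.57 and Npy2r at 4.27 CPM per kb. The lowest library for Npy1r (5.09 CPM per kb) was just above the highest for Oxtr (5.01), whereas the highest Npy2r library (5.18) reached into the Npy1r range and the ranges of Oxtr and Npy2r overlapped. A middle group followed with Drd2 at 1.49, Sstr2 at 1.36 and Galr1 at 1.19 CPM per kb, whose ranges overlapped each other. Avpr1a stood at 0.872 CPM per kb (range 0.653 to 0.994), below every Galr1 value but overlapping the range of Sstr2. Rgs9bp at 0.179 and Drd1 at 0.115 CPM per kb were the lowest, with overlapping ranges.

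In iKO libraries Avpr1a stood higher in this order. At 1.68 CPM per kb (range 1.39 to 1.97), it stood above every value of Galr1 (0.958 to 1.33) and Sstr2 (0.673 to 1.22) and overlapped Drd2 (0.888 to 2.6). Rgs9bp at 0.402 and Drd1 at 0.384 CPM per kb remained lowest, and each was above its highest control value. Npy1r at 7.09, Npy2r at 4.69 and Oxtr at 4.67 CPM per kb stayed the highest. Per length, the transcripts of Y1, oxytocin and Y2 receptors were thus the most abundant of this set in both groups, and the 3 genes with separated groups were the 3 with the lowest control levels.

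**Figure D2:**
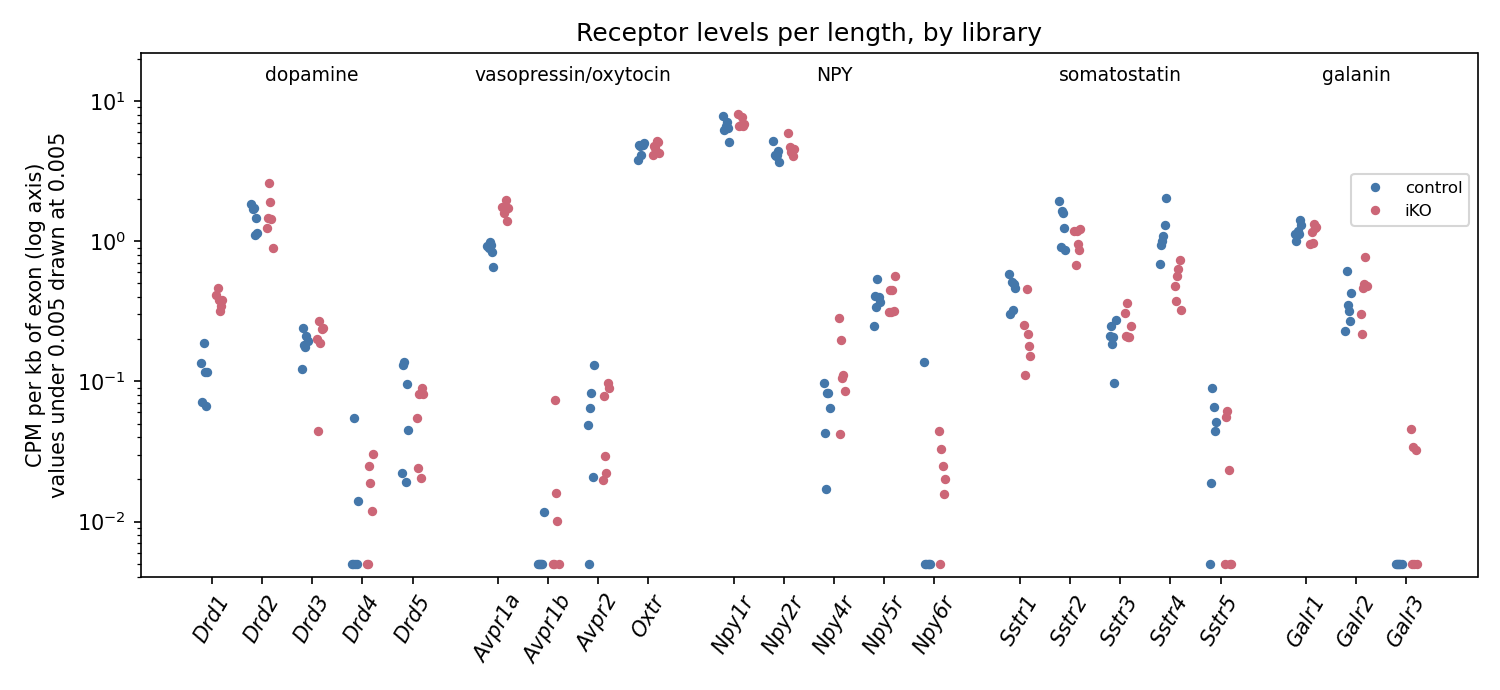
Level per kb of exon (log axis, CPM per kb; values under 0.005 drawn at 0.005) of the dopamine, vasopressin and oxytocin, neuropeptide Y, somatostatin and galanin receptor genes in each control (blue) and iKO (red) library. Npy1r, Npy2r and Oxtr lie highest, and Avpr1a and Drd1 show red points above all blue points.

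Drd1 (ENSMUSG00000021478), the receptor that couples dopamine to stimulatory G proteins, rose from 0.419 ± 0.162 to 1.39 ± 0.18 CPM (mean ± SD, n = 6 each). The raw counts were 7, 5, 11, 7, 4 and 9 in controls 1 to 6, and 26, 22, 33, 18, 31 and 27 in iKO 1 to 6. Every control count was above the limit of 3 counts, and the lowest iKO count was above the highest control count. Normalised, the lowest, median and highest levels were 0.241, 0.42 and 0.679 CPM across controls and 1.15, 1.39 and 1.67 CPM across iKO. The log2 fold change was 1.71 ± 0.239 (SE), with a 95% interval of 1.19 to 2.23.

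The precision of the Drd1 value is set by its small counts. Summed over libraries, 43 reads in controls give 0.412 CPM, with an exact Poisson 95% interval of 0.298 to 0.555 CPM, and 157 reads in iKO give 1.38 CPM (1.17 to 1.61 CPM). Both intervals cover counting error only. The variance of the normalised counts between control libraries was 1.06 times that of counting alone, and between iKO libraries 0.364 times, so the spread seen in either group was about that of counting or less. The Drd1 log2 fold change ran from 1.54 to 1.89 when each library was left out in turn, and Drd1 missed the threshold with tamoxifen-injected animals only (1.59), with males only (1.51; 3 iKO and 4 control libraries) and with the replicate number as a block (1.92). With males only, the deleted gene Prdm12 missed the threshold too, at -2.62 (edgeR adjusted p = 0.0969).

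Drd2 (ENSMUSG00000032259), the inhibitory dopamine receptor, had no such separation, at 3.81 ± 0.789 CPM across controls and 4.04 ± 1.52 CPM across iKO (n = 6 each). Its levels were 4.70, 4.29, 4.38, 2.82, 3.73 and 2.92 CPM in controls 1 to 6 and 3.15, 3.72, 6.63, 4.81, 3.64 and 2.26 CPM in iKO 1 to 6. The iKO group held both the highest and the lowest library. The log2 fold change was 0.03 ± 0.221 (95% interval -0.45 to 0.51). Between iKO libraries the variance was 12.1 times that of counting, the largest of the 9 genes, against 2.86 times between controls.

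D2 receptors are abundant in the pituitary, where dopamine restrains prolactin release, and the pituitary lies beside the trigeminal ganglion. The highest Drd2 level, in iKO 3, was in the library with the highest sum of pituitary markers (2820 CPM), and the lowest, in iKO 6, was in the library with the lowest sum (9 CPM). In the other 10 libraries the sums ran from 12.8 to 691 CPM and Drd2 from 2.82 to 4.81 CPM. The marker Lhb was at 0 in all libraries, and 5 of the 10 markers passed the filter, none of which passed the threshold between iKO and control. Without iKO 3 the iKO mean of Drd2 was 3.52 ± 0.926 CPM (n = 5) and the log2 fold change -0.12. The part of pituitary RNA in the Drd2 level was not tested. Drd1 in iKO 3 was 1.39 CPM, equal to its iKO median, and the Drd1 mean without that library was 1.39 ± 0.201 CPM.

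**Figure D3:**
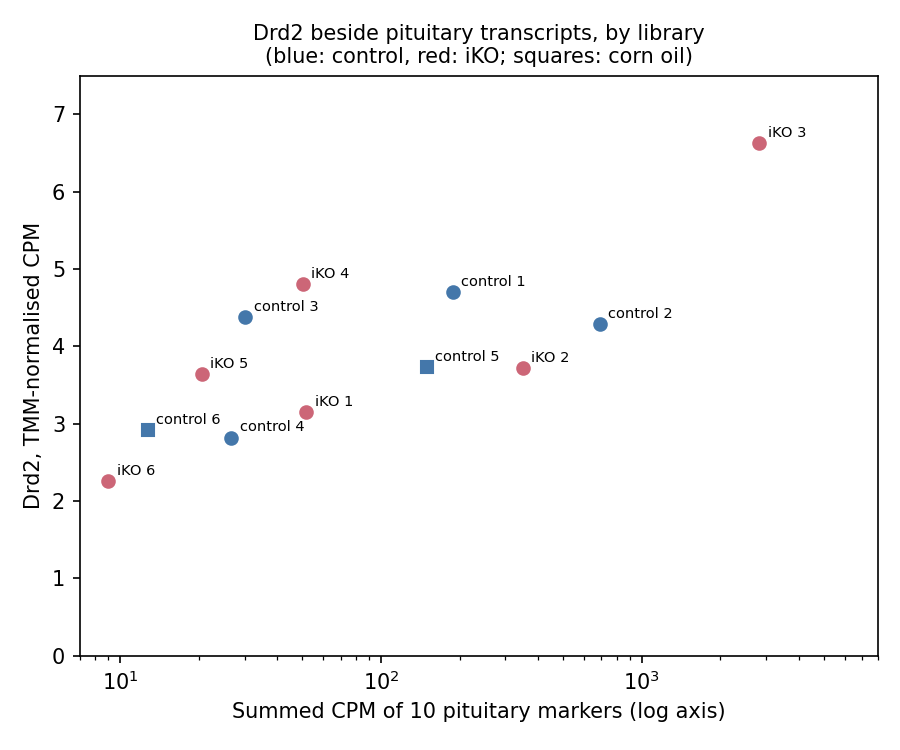
Drd2 level (vertical axis, TMM-normalised CPM) beside the summed CPM of 10 pituitary markers (horizontal log axis) in each library; blue is control, red iKO, and squares are corn oil controls. The library iKO 3 has the highest value on both axes and iKO 6 the lowest on both, while the other 10 lie between 2.82 and 4.81 CPM of Drd2.

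The other dopamine receptor genes were near the limit of detection and none passed the filter. Drd3 had 34 reads over the controls and 41 over iKO, Drd5 had 25 and 23, and Drd4 had 4 and 6, with at most 3 in any library. Of 7 genes that make, transport or break down dopamine, 6 were tested and 0 passed the threshold. Th, which encodes the rate-limiting enzyme of dopamine synthesis, measured 10.6 ± 1.13 CPM across controls and 9.2 ± 1.08 CPM across iKO (log2 fold change -0.22; edgeR adjusted p = 0.458). Slc6a3, the dopamine transporter gene, had at most 5 reads in any library.

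Rgs9bp (ENSMUSG00000056043) rose from 1.18 ± 0.318 to 2.65 ± 0.339 CPM (n = 6 each). Raw counts were 13, 22, 29, 16, 18 and 25 in controls 1 to 6 and 50, 39, 63, 45, 51 and 48 in iKO 1 to 6. The groups did not overlap: the highest control was 1.79 CPM, in control 3, and the lowest iKO library was 2.06 CPM, in iKO 5. Its log2 fold change was 1.16 ± 0.187 (95% interval 0.76 to 1.57). Pooled, the level was 1.18 CPM in controls (exact Poisson 95% interval 0.98 to 1.41 CPM) and 2.59 CPM across iKO (2.31 to 2.91 CPM).

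Over 20 alternatives the log2 fold change of Rgs9bp ran from 0.97 to 1.31. It missed the threshold without control 1 (1.07), control 2, control 5 or iKO 1 (each 1.14), with tamoxifen-injected animals only (1.13), with males only (0.97), with the replicate block (1.31), and without iKO 3, iKO 5 and control 6 together (1.26). The annotated neighbours of Rgs9bp are Ankrd27 and Nudt19. Chosen for that position after their values were seen, they had log2 fold changes of 0.07 and 0.01, and Ankrd27 measured 86.8 to 95.8 CPM across controls and 88.3 to 99.9 CPM across iKO.

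The other genes listed for R7-RGS complexes, not all of them partners of Rgs9bp, showed no call. All 8 were tested, 0 were higher and 0 lower, and their median log2 fold change was 0.00. Rgs9, which encodes the protein that Rgs9bp anchors, measured 6.12 ± 0.581 CPM across controls and 7.32 ± 1.57 CPM across iKO (log2 fold change 0.20; edgeR adjusted p = 0.58). The related anchor gene Rgs7bp measured 700 ± 63.7 CPM across controls and 703 ± 56.9 CPM across iKO. Gnb5, the shared beta subunit of these complexes, had a log2 fold change of 0.01. Gpr179, an orphan receptor that binds R7 proteins, measured 5.2 ± 0.937 CPM across controls and 3.53 ± 0.61 CPM across iKO. Its log2 estimate of -0.57 ± 0.148 did not pass in edgeR (adjusted p = 0.128) and passed in DESeq2.

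Avpr1a (ENSMUSG00000020123), the V1a vasopressin receptor, rose from 2.33 ± 0.32 to 4.49 ± 0.508 CPM (n = 6 each). Controls 1 to 6 measured 2.45, 2.38, 2.65, 2.52, 2.23 and 1.74 CPM, and iKO 1 to 6 measured 4.69, 4.25, 4.44, 5.26, 3.72 and 4.58 CPM. The lowest iKO library, iKO 5, stood above the highest control, control 3. For Avpr1a the log2 fold change was 0.94 ± 0.136 (95% interval 0.65 to 1.24). Pooled counts of 240 and 506 reads gave 2.30 CPM (exact Poisson 95% interval 2.02 to 2.61 CPM) in controls and 4.44 CPM (4.06 to 4.84 CPM) in iKO.

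Variance between libraries was 0.864 times that of counting for Avpr1a in controls and 1.13 times in iKO. Its log2 fold change stayed between 0.84 and 1.00 over 20 alternatives, and it missed the threshold with the replicate block (0.99) and with males only (0.98). The antisense gene Gm48877 covers Avpr1a on the other strand but shares no exon bases with it and had 1 read over all 12 libraries.

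Oxtr (ENSMUSG00000049112), the oxytocin receptor and closest relative of Avpr1a in this set, measured 21.9 ± 2.36 CPM across controls and 22.4 ± 2.1 CPM across iKO (n = 6 each). The lowest, median and highest libraries were 18.1, 23.1 and 24.0 CPM across controls and 19.6, 22.5 and 24.8 CPM across iKO. The groups overlapped almost fully. On the log2 scale the difference was 0.05 ± 0.0808 (95% interval -0.13 to 0.22).

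The other vasopressin receptor genes were hardly detected. Avpr1b had 1 read over the controls and 9 over iKO, of which 7 were in iKO 3, and Avpr2 had 18 and 19. Reads of the peptide genes were concentrated in 3 libraries: the level of Avp was 6.67 CPM in control 3, 3.30 CPM in control 6, 3.63 CPM in iKO 3, and no other library exceeded 0.84 CPM. Oxt measured 1.61, 4.20 and 1.52 CPM in the same libraries and at most 0.42 CPM in the rest. These peptides are made in hypothalamic neurons whose axons end in the posterior pituitary, and the part of such tissue in the counts was not tested. Avpr1a in iKO 3 was 4.44 CPM, near the iKO median of 4.51 CPM. Lnpep, an enzyme that cleaves both peptides, measured 433 ± 49.9 CPM across controls and 430 ± 41 CPM across iKO and did not pass.

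Npy1r (ENSMUSG00000036437), the Y1 receptor, measured 22.5 ± 3.15 CPM across controls and 24.5 ± 2.13 CPM across iKO (n = 6 each). Its lowest, median and highest levels were 17.6, 22.5 and 27.0 CPM across controls and 23.0, 23.3 and 27.9 CPM across iKO. The groups overlapped, with controls 1 and 4 inside the iKO range and the other controls below it. On the log2 scale the difference was 0.11 ± 0.0931 (95% interval -0.09 to 0.31).

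Npy2r (ENSMUSG00000028004), the Y2 receptor, found on terminals of sensory neurons, measured 14.5 ± 1.72 CPM across controls and 15.9 ± 2.15 CPM across iKO (n = 6 each). The lowest, median and highest levels were 12.4, 13.9 and 17.5 CPM across controls and 13.8, 15.4 and 20.0 CPM across iKO. In both groups the highest library was a female's with the number 1. The log2 fold change was 0.11 ± 0.0899 (95% interval -0.09 to 0.30).

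Npy5r measured 0.979 ± 0.246 CPM across controls and 1.02 ± 0.264 CPM across iKO and did not pass. Npy4r, with 24 reads over the controls and 59 over iKO, did not pass the filter, and 18 of the iKO reads were in iKO 1 and 17 in iKO 3. The gene of the ligand, Npy, had 39 reads over the controls and 62 over iKO, 36 of them in iKO 5, the library with the highest sum of skeletal muscle markers, whose part in the Npy reads was not tested. The related peptide genes Pyy and Ppy were at 0 in all 12 libraries.

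Sstr2 (ENSMUSG00000047904), a somatostatin receptor coupled to inhibitory G proteins, had the lowest fold change of the 9 genes, at 2.92 ± 0.922 CPM across controls and 2.17 ± 0.469 CPM across iKO (n = 6 each). Controls 1 to 6 measured 4.14, 1.96, 3.52, 3.42, 2.65 and 1.84 CPM, and iKO 1 to 6 measured 2.52, 1.44, 2.54, 2.05, 1.86 and 2.62 CPM. Controls 2 and 6 lay within the iKO range and the other 4 above it. The log2 fold change was -0.42 ± 0.233 (95% interval -0.92 to 0.08), and without control 1 it was -0.23. Sstr2 lies within the span of Slc39a11 on the other strand, with no shared exon bases.

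Sstr4 and Sstr1 were also lower in mean level in iKO without passing the threshold in edgeR. Sstr4 measured 1.67 ± 0.655 CPM across controls and 0.739 ± 0.223 CPM across iKO. Its log2 estimate of -1.07 ± 0.258 missed the threshold in edgeR (adjusted p = 0.103) and passed in DESeq2. For Sstr1 the levels were 0.915 ± 0.228 and 0.466 ± 0.249 CPM, and the log2 estimate was -0.98 ± 0.314 (edgeR adjusted p = 0.25). Sstr3, at 0.883 ± 0.264 CPM across controls and 1.11 ± 0.277 CPM across iKO, had a log2 fold change of the other sign, 0.26 (edgeR adjusted p = 0.734). Sst, the gene of somatostatin itself, measured 4.17 ± 0.967 CPM across controls and 5.15 ± 1.17 CPM across iKO (log2 fold change 0.28; edgeR adjusted p = 0.61). Sstr5 did not pass the filter.

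Galr1 (ENSMUSG00000024553), which couples galanin to inhibitory G proteins, was the gene with the fold change closest to 0. It measured 3.56 ± 0.435 CPM across controls and 3.45 ± 0.463 CPM across iKO (n = 6 each). The lowest, median and highest levels were 3.00, 3.44 and 4.21 CPM across controls and 2.86, 3.61 and 3.97 CPM across iKO. The groups overlapped, and the log2 fold change was 0.00 ± 0.111 (95% interval -0.24 to 0.24). Galr2 measured 0.9 ± 0.336 CPM across controls and 1.12 ± 0.472 CPM across iKO (log2 fold change 0.33; edgeR adjusted p = 0.737), and Galr3 had 0 reads over the controls and 3 over iKO. The galanin gene Gal measured 7.98 ± 0.784 CPM across controls and 6.28 ± 2.37 CPM across iKO (log2 fold change -0.36; edgeR adjusted p = 0.569), and Spx, which encodes the galanin receptor ligand spexin, had a log2 fold change of 0.23 and did not pass.

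**Figure D4:**
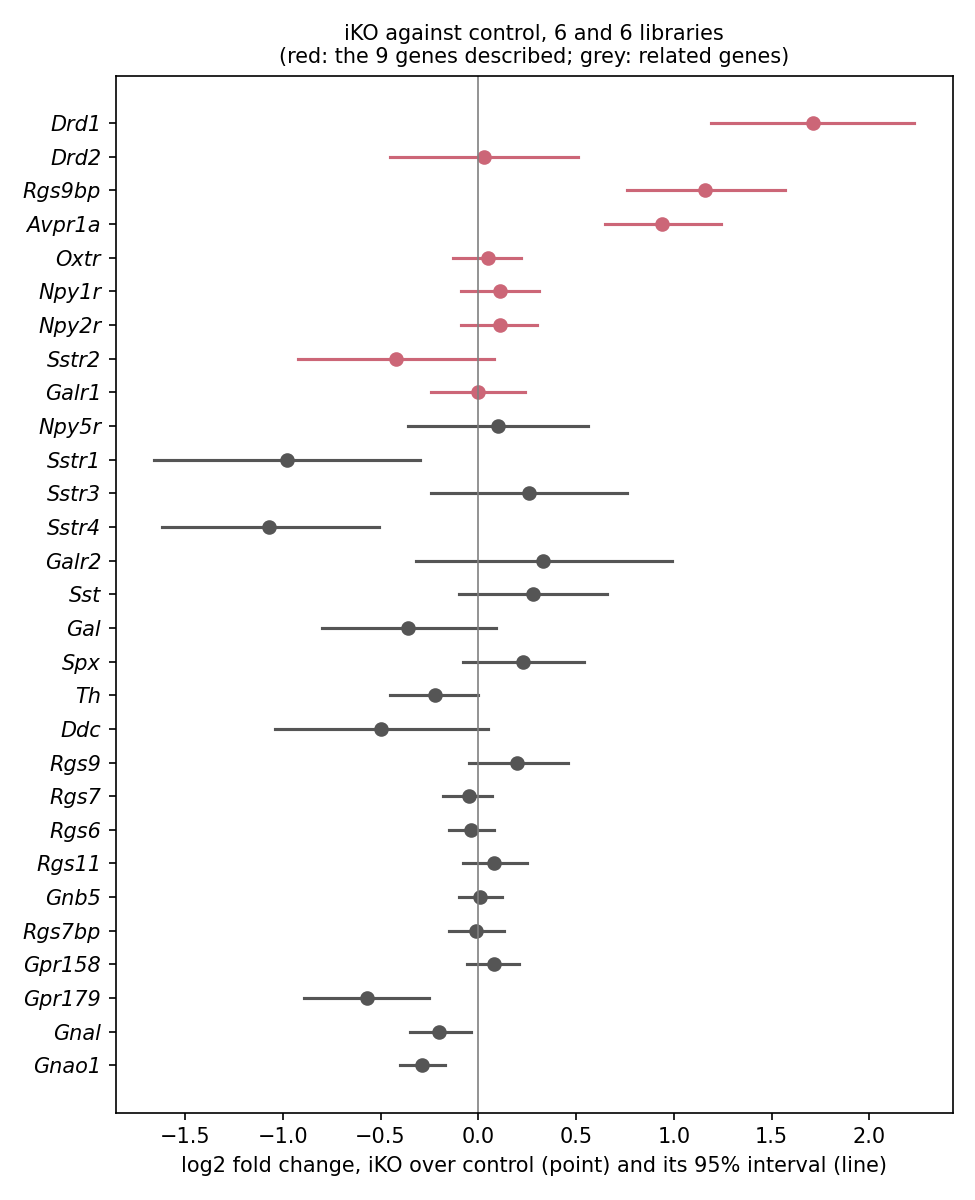
Log2 fold change of iKO over control (point, horizontal axis) with its 95% interval (line), from 6 and 6 libraries. Red marks the 9 genes, and grey marks related receptors, ligands, dopamine synthesis genes, R7-RGS complex genes and transducers. The lines of Drd1, Rgs9bp and Avpr1a lie wholly to the right of 0, and those of the other 6 red genes cross 0.

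Over the 64 related genes, 46 were tested, 0 passed as higher and 1 as lower in iKO, beside 0.379% of all genes passing in either direction. Their median log2 fold change was -0.05, and 16 had a positive and 30 a negative or zero estimate. The gene that passed was Gnao1, the neuronal inhibitory G-protein subunit through which several of these receptors act, which fell from 580 ± 32.2 to 472 ± 32.1 CPM (n = 6 each). Controls 1 to 6 measured 531, 591, 603, 589, 614 and 550 CPM and iKO 1 to 6 measured 472, 427, 484, 523, 453 and 471 CPM, so the groups did not overlap. The log2 fold change was -0.29 ± 0.0522 (edgeR adjusted p = 0.0397). The call was close to the threshold: it was lost in 10 of the 12 fits that left out 1 library (-0.31 to -0.26 there), in all but those without control 6 and without iKO 4. It was also lost with tamoxifen-injected animals only, with males only, with the replicate block and without iKO 3, iKO 5 and control 6 together, at -0.29 in each.

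Grk2, a kinase that desensitises activated receptors, measured 182 ± 12.6 CPM across controls and 155 ± 12.6 CPM across iKO, and its log2 estimate of -0.22 did not pass in edgeR (adjusted p = 0.15) and passed in DESeq2. For Gnal, which encodes the stimulatory subunit that serves D1 receptors in the striatum, the log2 estimate was -0.20 (edgeR adjusted p = 0.313). Gnas, the general stimulatory subunit gene, had an estimate of the other sign, 0.44 (edgeR adjusted p = 0.415), with 64.5 ± 20.1 CPM across controls and 80.5 ± 18.6 CPM across iKO. Adenylyl cyclases were not among the 64 genes. Adcy5, the cyclase best known for its link to dopamine receptors in the striatum, is added here after its values were seen. The other cyclase genes are not given, so nothing is read from it about cyclases or dopamine signalling. It fell from 72.8 ± 4.18 to 47.8 ± 6.45 CPM (n = 6 each), or by 0.60 ± 0.0847 on the log2 scale (edgeR adjusted p = 0.00823), with iKO at 36.3 to 54.5 CPM and controls at 67.2 to 77.7 CPM. It did not pass with males only (-0.59) or with the replicate block (-0.65).

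Male against female is a contrast in which the 9 genes were not chosen. None of the 9 passed it, beside 0.108% of all genes (18 of 16637), and log2 differences of male over female ran from -0.36 for Drd2 to 0.28 for Galr1. Galr1 measured 3.13 ± 0.283 CPM in 5 female libraries (2.86 to 3.49) and 3.78 ± 0.286 CPM in 7 male libraries (3.36 to 4.21), a difference of 0.28 (95% interval 0.03 to 0.52; edgeR adjusted p = 0.469). It was the only one of the 9 at an unadjusted p under 0.05. Both corn oil controls are male, so sex and the kind of control partly go together in this contrast. Among controls Galr1 measured 4.06 ± 0.211 CPM in the 2 with corn oil and 3.31 ± 0.222 CPM in the 4 with tamoxifen. Among iKO libraries, all with tamoxifen, it measured 3.09 ± 0.348 CPM in 3 female and 3.82 ± 0.138 CPM in 3 male libraries. Npy2r measured 16.4 ± 2.41 CPM in females and 14.3 ± 1.1 CPM in males (-0.19, 95% interval -0.38 to 0.01; edgeR adjusted p = 0.507). Drd2 measured 4.5 ± 1.33 CPM in females and 3.51 ± 0.903 CPM in males (-0.36, 95% interval -0.84 to 0.12; edgeR adjusted p = 0.574), and pituitary markers moved with this contrast, since the 5 tested had a median log2 difference of -3.71 and Pomc passed as lower in males. Their part in the Drd2 values was not tested.

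The effect of the knockout on the 9 genes was not called different between the sexes. In the interaction of group and sex, 0 of 16637 genes passed (0% of all genes; edgeR quasi-likelihood test, 318 genes at an unadjusted p under 0.05, 0 in DESeq2). For Drd1 the male effect minus the female effect was -0.52 on the log2 scale (95% interval -1.62 to 0.58), for Avpr1a 0.10 (-0.53 to 0.72) and for Rgs9bp -0.48 (-1.29 to 0.34). By value, Drd1 measured 0.374 ± 0.164 CPM in 2 control females and 1.52 ± 0.14 CPM in 3 iKO females, and 0.441 ± 0.18 CPM in 4 control males and 1.27 ± 0.118 CPM in 3 iKO males. The intervals for Drd1 and Rgs9bp are wide enough to hold a more than 2-fold difference between the sexes as well as none.

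The kind of control differed between replicates 1 to 4, whose controls received tamoxifen and had other genotypes, and replicates 5 and 6, whose controls had the iKO genotype and corn oil. All 4 libraries numbered 5 and 6 are male. Drd1 measured 0.462 ± 0.174 CPM in the 4 tamoxifen controls and 0.332 ± 0.13 CPM in the 2 corn oil controls, beside 1.43 ± 0.215 CPM in iKO 1 to 4 and 1.32 ± 0.095 CPM in iKO 5 and 6. For Avpr1a these levels were 2.5 ± 0.118 and 1.99 ± 0.341 CPM across controls and 4.66 ± 0.438 and 4.15 ± 0.605 CPM across iKO. For Rgs9bp they were 1.20 ± 0.405 and 1.13 ± 0.0676 CPM across controls and 2.84 ± 0.127 and 2.27 ± 0.287 CPM across iKO. For these 3 genes every iKO library was above every control, so iKO was bound to be higher against either kind. These values are therefore no support for the rise.

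The difference of the iKO effect between these sets passed for 0 of 16637 genes (0% of all genes; edgeR quasi-likelihood test, 613 at an unadjusted p under 0.05, 2 in DESeq2). The effect in replicates 5 and 6 minus that in replicates 1 to 4 was 0.31 for Drd1 (95% interval -0.78 to 1.40), 0.17 for Avpr1a (-0.39 to 0.73) and -0.24 for Rgs9bp (-1.06 to 0.58) on the log2 scale. None of the 9 genes passed in any alternative fit of this contrast. Sex and the kind of control cannot be told apart for replicates 5 and 6.

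Genes that varied most like each of the 9 from library to library were looked for after the mean of each group was taken out, over 12 libraries and 14082 genes. Values are Pearson's r of log2 levels, given as a description: each is the highest among many genes, and the libraries share depth and tissue content. Avpr1a varied most like Gabrd (r = 0.97), a subunit of GABA-A receptors, and Pcsk2 (r = 0.93), a protease that matures neuropeptides. Npy1r was nearest Necab1 (0.94) and the potassium channel gene Kcnc2 (0.93), and Oxtr nearest Josd1 (0.93) and Twf1 (0.88). Rgs9bp was nearest Ccdc177 (0.93) and Eid2b (0.89), Sstr2 nearest Ankfn1 (0.92) and Me3 (0.92), and Npy2r nearest Reps2 (0.90) and Map3k1 (0.89). Drd2 was nearest Krt27 (0.89) and Bptf (0.87), and Galr1 nearest Sgpp1 (0.86) and Pnma1 (0.85). Drd1, with a mean under 1 CPM, was not included in this search.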

How the data were processed

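RNA was measured in 12 libraries of mouse trigeminal ganglia, 6 iKO and 6 control, grouped by the labels. The libraries were made from polyadenylated RNA with a TruSeq kit that does not keep strand, per the labels' protocols. Per the submitters' processing notes, bcl2fastq 2.20.0.422, STAR 2.7.8a, featureCounts 2.0.1 and the build GRCm39 were used; which annotation release and counting options they used is not given in the sources used here. The deposited values are the authors' raw counts of reads per Ensembl gene, without normalization. Gene symbols, exon lengths and overlaps came from GENCODE M21 on GRCm38 and promoter sequences from RefSeq on GRCm38.p6, so no coordinate here comes from the count files. Of 55416 identifiers, 52083 had a symbol, and the other 3333 held 0.274% of the counts.

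Counts were tested with edgeR 4.0.16 (R 4.3.3): filterByExpr by group kept 16637 genes, TMM scaled the libraries with factors of 0.969 to 1.02, and the quasi-likelihood test had sex as a covariate. Benjamini-Hochberg adjustment ran over all 16637 genes, and an adjusted p under 0.05 counted as passing. The size of each fold change and its F statistic gave the standard errors. Levels are TMM-normalised counts per 1000000 counts of the library (CPM), and CPM per kilobase (kb) of exon where genes are compared. Other fits tested male against female, the interaction of group and sex, and the difference of the effect between replicates 5 and 6 and replicates 1 to 4, the last with 1 coefficient for each of the 4 combinations. The fits were tested on simulated counts. Alternatives were another scaling, no filter, DESeq2 1.42.0, a replicate block, no covariate, tamoxifen-injected or male animals only, and each library left out; leaving out 3 libraries together was chosen after seeing the data.

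The 9 genes, the lists of related genes and markers, and the tests were chosen with earlier results of these data known. The 9 genes' own comparison of iKO with control is therefore a description: no p is printed, and their threshold calls are given as limits, not as support. All 9 are named, with the related receptors and ligands, every related gene past the threshold, and, for likeness, the 2 genes with the highest Pearson r to each gene with a mean of at least 1 CPM. Libraries of the same group differed by more than counting noise (chi-square of 7.16 to 26.2 per degree of freedom in 30 pairs), so no pair was counted as 1 library. The labels do not say that each library is a separate animal's; p-values measure the spread between these libraries. Intervals on counts are exact Poisson intervals and cover counting error only: without molecular identifiers, reads are not independent molecules. The test of 1 marker gene is not reported here.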

Additional observations from a re-analysis of the deposited data

Results flagged for a closer look

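Of 18 groups of 6 libraries examined for the 9 genes, 2 held a library whose distance to its nearest neighbour exceeded Dixon's 95% critical value of 0.625 of the group's range, and chance alone flags about 1 in 20 groups. Npy2r measured 20.0 CPM in iKO 1, next to 16.0 CPM in the nearest iKO library, a gap of 0.642 of the range; without iKO 1 the log2 fold change of Npy2r was 0.05. Rgs9bp measured 1.79 CPM in control 3, next to 1.18 CPM in the nearest control, a gap of 0.696 of the range; without control 3 the log2 fold change of Rgs9bp was 1.30.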

How the results depend on the processing

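The count of 63 genes between iKO and control became 138 without a filter, 333 with DESeq2, 15 with the replicate block and sex, 28 with tamoxifen-injected animals only, 1 with males only and 23 to 88 when 1 library was left out. The 1 related gene became 4 with DESeq2, 0 with the replicate block, tamoxifen-injected animals only, males only or 3 libraries left out together, and 0 to 1 when 1 library was left out. The 18 genes between the sexes became 33 without a filter, 55 with DESeq2, 15 with the replicate block and 11 to 15 when 1 library was left out. The count of 0 for the difference between replicate sets became 234 without a filter, 2 with DESeq2 and 0 to 6 when 1 library was left out, 6 of them without iKO 6. Some estimates changed sign: Npy2r between the sexes was 0.06 with the replicate block, the sex difference for Avpr1a was -0.03 without control 6 and -0.03 without iKO 4, and the difference between replicate sets was -0.02 for Drd1 without control 5 and -0.01 for Avpr1a without control 6. Over the fits that left out 1 library, these estimates ran from -0.03 to 0.21 for the sex difference of Avpr1a, from -0.02 to 0.79 for the set difference of Drd1 and from -0.01 to 0.34 for that of Avpr1a. The cause of these changes was not tested, except that males only and tamoxifen only have fewer libraries. Same-numbered libraries did not deviate together in every pair (r from -0.423 to 0.344), and 0 of 6 iKO libraries correlated best with the control of its number. This check over 6 numbers cannot exclude a pairing. The labels do not say what a shared number means, and the numbers were not taken to pair the animals. Depth limits Drd1, whose control counts were 4 to 11, and receptors with a few reads per library.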
